A study of Rattus norvegicus with 16 samples.

Results

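The genes described here are 10 that cells switch on when their DNA is damaged or their protein synthesis is under strain: Cdkn1a, Mdm2, Ccng1, Gadd45a, Gadd45b, Gadd45g, Atf3, Ddit3, Ddit4 and Trib3. They were taken by name from the gene names of a rat expression array, on which they have 13 of 30367 probes (10 of 26583 gene names). The rule that picks them uses names and no measured value, but earlier results of these data were known when the genes were chosen. RNA came from the whole hippocampus of Sprague-Dawley rats 24 h after the procedure, with 1 array per rat. The 16 arrays were 3 Naïve rats (no anesthesia and no handling), 2 Sham rats (prepared for injury but not injured), 3 TBI rats (fluid percussion brain injury, no drug), and injured rats given PMI-006 (TBI+PMI, 3 arrays) or JM6 (TBI+JM6, 3 arrays), both by oral gavage, or the estrogen preparation E33 (TBI+E33, 2 arrays) under the skin. The labels give the route under the skin for E33, while the methods name estradiol given intraperitoneally. The question was which of these stress genes moved with the injury, with the sham procedure, and with each drug given after the injury. In whole tissue, fewer cells of a type and less RNA per cell cannot be told apart.

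Both arms of this response are well known. When DNA is broken, the p53 transcription factor is stabilised and switches on Cdkn1a (p21), an inhibitor of cyclin-dependent kinases that stops the cell cycle, Mdm2, the ubiquitin ligase that returns p53 to a low level, Ccng1 (cyclin G1), which acts on the Mdm2 loop, and Gadd45a, a small stress sensor that binds stress kinases and proteins of DNA repair. In the integrated stress response, kinases that sense unfolded protein, missing amino acids, heme deficit or viral RNA phosphorylate the initiation factor eIF2, and translation of ATF4 rises; ATF4 in turn switches on Atf3, Ddit3 (CHOP), Trib3 and Ddit4. Gadd45b and Gadd45g are relatives of Gadd45a that neurons also induce upon activity, and Ddit4 (REDD1) inhibits the growth kinase complex mTORC1 and is raised by glucocorticoids and low oxygen as well.

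The promoters of 4 of the genes are shown because the results turn on them. They are Gadd45a, the member called higher in TBI against Naïve rats, and its relative Gadd45g. The others are Ddit4, the member called lower in TBI against Sham but not against Naïve rats, and Trib3, the member closest to the array's background. Each line gives the 250 bases before the transcript start, from RefSeq on build GRCr8, 5′ to 3′. Capitals mark matches to the motifs searched on both strands.
Gadd45a, chr4:97486800-97487049, minus strand: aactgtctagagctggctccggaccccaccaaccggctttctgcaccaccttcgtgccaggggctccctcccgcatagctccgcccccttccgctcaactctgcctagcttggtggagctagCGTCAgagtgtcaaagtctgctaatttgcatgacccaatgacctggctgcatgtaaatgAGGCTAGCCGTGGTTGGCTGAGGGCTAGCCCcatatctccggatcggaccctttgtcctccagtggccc
Gadd45g, chr17:13530352-13530601, minus strand: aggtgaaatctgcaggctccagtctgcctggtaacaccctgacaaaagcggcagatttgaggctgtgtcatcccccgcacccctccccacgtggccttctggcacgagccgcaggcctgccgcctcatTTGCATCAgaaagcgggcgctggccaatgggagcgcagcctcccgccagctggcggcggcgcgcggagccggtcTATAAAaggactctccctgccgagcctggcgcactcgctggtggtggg
Ddit4, chr20:28437038-28437287, minus strand: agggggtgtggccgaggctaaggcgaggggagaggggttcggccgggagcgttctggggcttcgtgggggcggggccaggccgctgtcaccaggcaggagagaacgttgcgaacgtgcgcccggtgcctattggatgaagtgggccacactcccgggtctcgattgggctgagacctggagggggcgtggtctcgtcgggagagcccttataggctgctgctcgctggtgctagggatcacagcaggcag
Trib3, chr3:161275534-161275783, minus strand: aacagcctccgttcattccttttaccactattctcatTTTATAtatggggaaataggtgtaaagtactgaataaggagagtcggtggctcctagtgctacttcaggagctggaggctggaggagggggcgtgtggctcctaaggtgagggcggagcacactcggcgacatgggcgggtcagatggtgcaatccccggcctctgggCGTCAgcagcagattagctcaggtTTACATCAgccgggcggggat
RefSeq promoters of 300 bases (250 before and 50 from the start) were found for 9 of the 10 genes and for 33469 genes in all. The short CRE (TGACG), a core element for ATF and CREB proteins, was in 5 of 9 (Cdkn1a, Gadd45a, Gadd45b, Trib3 and Mdm2) and in 21.2% of all promoters. The full CRE palindrome (TGACGTCA), which contains it, was in 0 of 9 and in 1.83% of all. The C/EBP-ATF element core (TGATGNAA), at which ATF4 and CHOP partners bind, was in Gadd45g and Trib3, and in 3.98% of all promoters. The AP-1 site (TGANTCA) was in Ddit3 alone and in 7.33% of all. The letters of the TATA box (TATAAA) were in Gadd45g and Trib3 and in 14.2% of all. In Gadd45g they lie on the gene's own strand at positions -48 to -43 from the start. In Trib3 they lie on the opposite strand at -213 to -208, so that match is to the letters only. The p53 response element, taken as a pair of its decamers up to 13 bases apart with at most 2 mismatches, was in Cdkn1a, Gadd45a and Ccng1, and in 3.53% of all. No motif of the set was found in this window of Ddit4. In the map of motif matches, the short CRE of Trib3 lies 45 to 41 bases before the start.

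**Figure D1:**
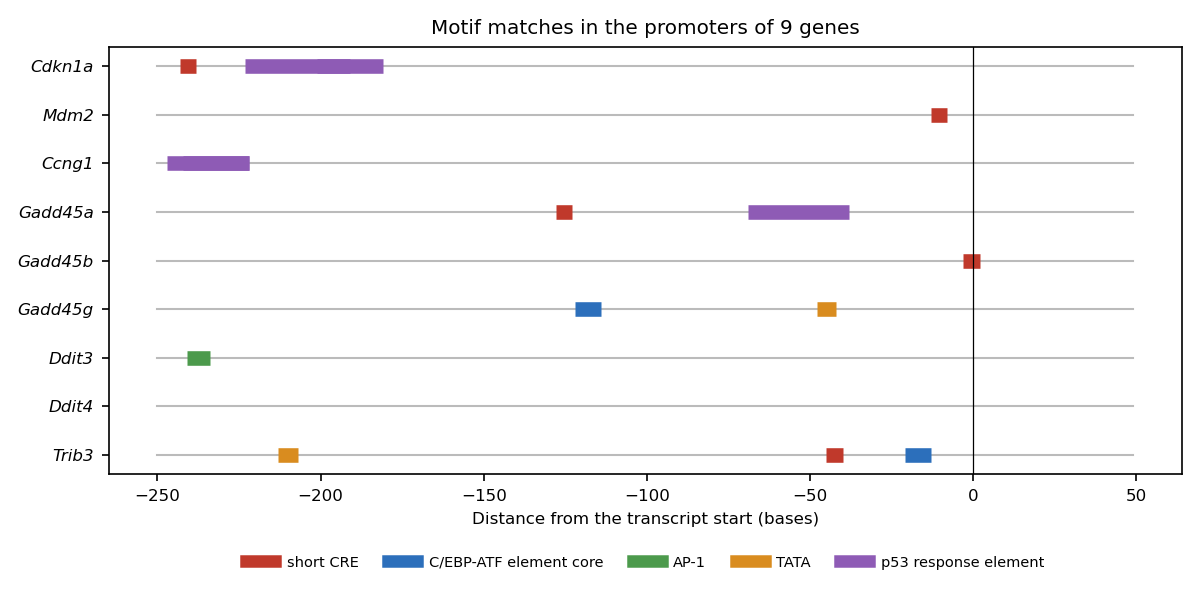
Matches to 5 motifs (colours) along the promoters of 9 genes; the x axis is the distance in bases from the transcript start, which is 0, and grey lines show the 300 bases searched. Ddit4 has no match, and the p53 response element appears in Cdkn1a, Ccng1 and Gadd45a.

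Each gene was read by its brightest probe, a 60-base oligonucleotide on the array. A level below is the log2 of the intensity divided by the 75th percentile of that array's probes well above background, so 0 is a bright gene, and a step of 1 is a doubling. Levels of different probes cannot be set against each other. All 10 genes passed the filter on dim probes, which asks that 1 or more groups have a signal well above background on all their arrays. Of the 10 counted probes, 8 were well above background on all 16 arrays; Atf3 was above on 14 and Trib3 on 8.

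Some facts of the arrays touch every result. The Naïve, Sham and TBI arrays were scanned in one session (16282 to 18245 probes well above background) and the drug arrays in another (20259 to 24984), so drug and session cannot be told apart against TBI. The slide is the other batch the file headers give: 1 slide held Naïve 1 and 2 with both Sham arrays, 1 held Naïve 3 with the 3 TBI arrays, 1 held the 3 TBI+PMI arrays with TBI+JM6 1, and 1 held TBI+JM6 2 and 3 with both TBI+E33 arrays. Summed markers of hippocampal fields (6 genes) and neurons (7 genes) lay between 2.46 and 3.59 and between 4.29 and 5.57. In TBI rats 4 of the 6 and 6 of the 7 were well above background on all arrays, while Prox1, a dentate granule cell marker, was above on no Sham or TBI array and Rbfox3 (NeuN) on no TBI array. Naïve rats had 4 of the 6 and 5 of the 7 above on all arrays, and 1 neuron marker was above on no Naïve array. For Sham rats the counts were 5 of the 6 and 7 of the 7. Summed leukocyte markers (6 genes) lay between -3.06 and -2.73 in Naïve, -1.70 and -1.13 in Sham and -0.62 and 1.72 in TBI rats, and 3, 1 and 1 of them were above background on no array of those groups. Choroid plexus markers (7 genes) lay between 1.24 and 6.26 in Naïve, 2.30 and 6.92 in Sham and -2.32 and 1.82 in TBI rats, where 4 of the 7 were above background on no array. Their part in the results below was not tested.

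Of the 10 genes, 1 changed in TBI vs. Sham, and it fell: Ddit4 (limma, Benjamini-Hochberg adjusted p under 0.05). Of all probes tested, 2.93% were called higher and 6.49% lower in this comparison. In TBI vs. Naïve, 1 gene changed, and it rose: Gadd45a; 2.98% of all probes were called higher and 1.73% lower. In Sham vs. Naïve 0 of 10 passed in limma, with 8.08% of all probes called in either direction; 2 of them, Ddit4 and Ccng1, had an unadjusted p under 0.05, and the methods' t-test, unadjusted and over 1.2-fold, passed 2. The share of all probes at an unadjusted p was not counted, so the unadjusted counts here and below have no reference. The shares called among the members are near those among all probes, and nothing here is particular to the set. The median log2 fold change of the 10 genes was 0.39 for TBI against Sham, 0.76 for TBI against Naïve and 0.35 for Sham against Naïve rats, where the medians of all probes were -0.03, 0.04 and 0.06.

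**Figure D2:**
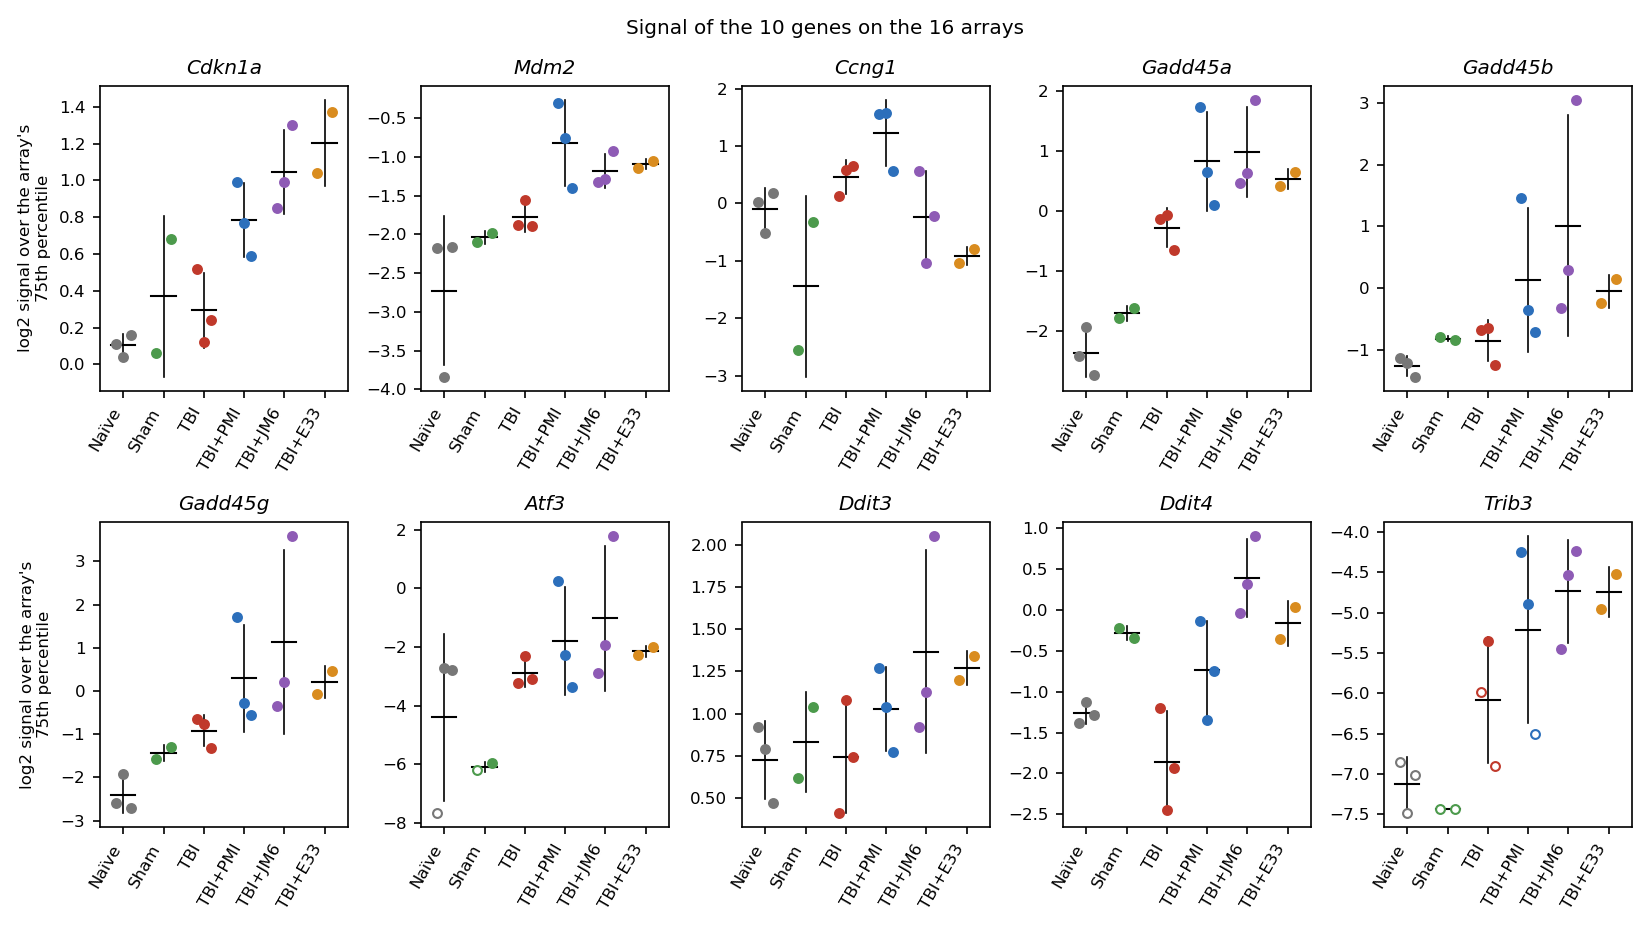
Each point is 1 array; the y axis is the log2 signal over the array's 75th percentile, open points are not well above background, horizontal lines are group means and vertical lines 1 SD. Gadd45a is higher on the 3 TBI arrays than on the 5 Naïve and Sham arrays, and Ddit4 is lower on the 3 TBI arrays than on both Sham arrays.

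Gadd45a was the member with the clearest change after injury. Its level was -2.42, -1.93 and -2.73 on the Naïve arrays, -1.79 and -1.62 on the Sham arrays and -0.13, -0.06 and -0.65 on the TBI arrays. The 3 TBI arrays were above all 5 others, and both Sham arrays were above the 3 Naïve ones. TBI rats had 4.23-fold more Gadd45a signal than Naïve rats (log2 fold change 2.08, SE 0.42, n = 3 and 3, adjusted p = 0.0183). Against Sham rats it was 2.69-fold (1.43, SE 0.47, n = 3 and 2), a difference that missed the threshold with an adjusted p of 0.0723 and passed it under quantile normalization (1.44, adjusted p = 0.0437). Sham vs. Naïve was 0.65 (SE 0.47, adjusted p = 0.457). On the slide that held TBI and Naïve 3 together, the difference was 2.45, with 3 of 3 TBI arrays above the Naïve one. With the slide as a fixed block the value was 2.45 and the call was lost (adjusted p = 0.0868). The call against Naïve rats was lost without Naïve 1 (adjusted p = 0.0638), Naïve 3 (0.0534) or TBI 2 (0.0629), while the value stayed between 1.90 and 2.30.

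Its relatives were not called in these comparisons. Gadd45b was at -1.14, -1.21 and -1.44 on the Naïve arrays, -0.79 and -0.85 on the Sham arrays and -0.68, -0.64 and -1.24 on the TBI arrays. TBI and Sham arrays overlapped, and the difference was -0.04 (95% interval -1.76 to 1.69). Gadd45g had levels of -2.59, -1.92 and -2.71 in Naïve, -1.57 and -1.30 in Sham and -0.65, -0.77 and -1.33 in TBI rats. Its TBI arrays all lay above the Naïve ones, by a mean of 1.49 (SE 0.83, adjusted p = 0.337), and they overlapped with Sham. The wide SE of both genes comes with the spread among drug-treated rats described below, since all groups share 1 estimate of the spread.

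Ddit4, the mTORC1 inhibitor, was 2.99-fold lower in TBI than in Sham rats. Its brighter probe read -0.22 and -0.34 on the Sham arrays, -1.2, -2.45 and -1.93 on the TBI arrays and -1.38, -1.12 and -1.28 on the Naïve arrays. The Sham arrays stood above all the others of that session, and TBI overlapped with Naïve. The log2 fold change was -1.58 in TBI vs. Sham (SE 0.39, adjusted p = 0.0279; quantile normalization -1.44, adjusted p = 0.0413), -0.60 against Naïve rats (SE 0.35, adjusted p = 0.361) and 0.98 for Sham against Naïve rats (SE 0.39, adjusted p = 0.15). These 3 comparisons share arrays. Leaving out Sham 1, Sham 2, TBI 2 or TBI 3 in turn ended the call in TBI vs. Sham (adjusted p from 0.0843 to 0.127), with the value between -1.29 and -1.65, and without TBI 1 it was -1.91 (adjusted p = 0.00573). With the slide as a fixed block, fitted on the arrays of that session alone, it was -1.56 (adjusted p = 0.764). In that fit Naïve rats are all that links the slides of Sham and TBI, and fewer arrays give the spread. Which of these ended the call was not tested.

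A second, dimmer Ddit4 probe showed the same order with larger steps. The sequence of this probe is printed since it may hold the end of the coding sequence, with its place on build rn4 as the array files give it. Read from its first base, its last 3 bases are a stop codon and no other stop occurs. Another frame has no stop at all, so the frames alone do not show which is coding.
Ddit4, dimmer probe, chr20:27253126-27253185, minus strand: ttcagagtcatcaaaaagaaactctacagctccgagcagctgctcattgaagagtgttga
It read -0.65 and -2.25 on the Sham arrays, -3.88, -4.12 and -4.40 on the Naïve arrays and -3.86, -5.31 and -5.23 on the TBI arrays. Both Sham arrays were again above the rest. The probe was called lower in TBI vs. Sham (log2 fold change -3.35, SE 0.59, adjusted p = 0.00925) and higher in Sham vs. Naïve (2.68, SE 0.59, adjusted p = 0.0182; quantile normalization 2.28, adjusted p = 0.0579). TBI vs. Naïve was -0.67 (SE 0.53, adjusted p = 0.525). With both probes averaged, Ddit4 was called for TBI against Sham rats (-2.47, adjusted p = 0.0129) and for Sham against Naïve rats (1.83, adjusted p = 0.0371).

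**Figure D3:**
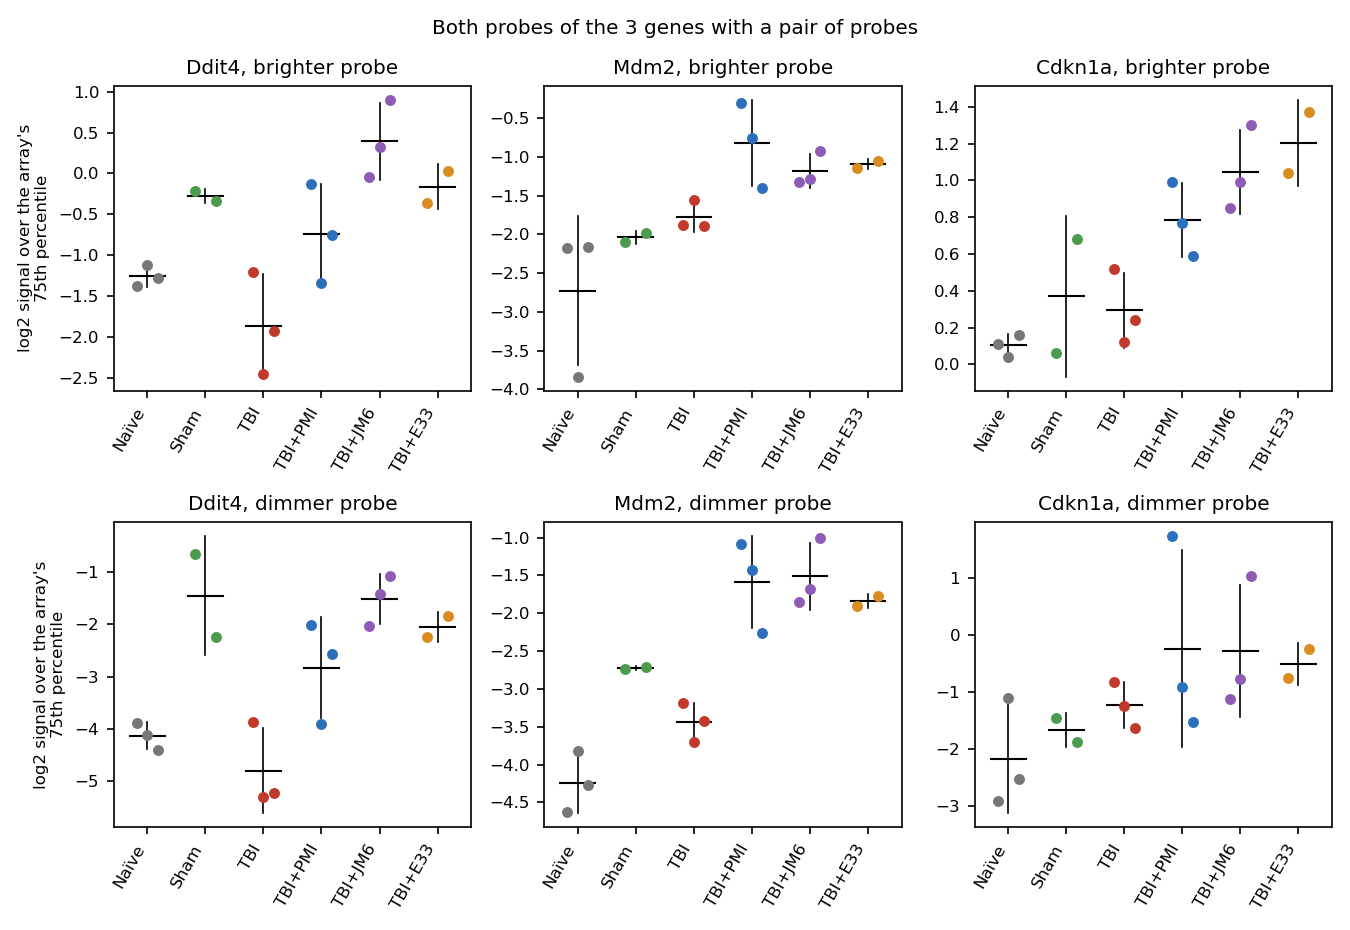
Both probes of Ddit4, Mdm2 and Cdkn1a, with the brighter probe, which was counted, above and the dimmer below; points are arrays, the y axis is the log2 signal over the array's 75th percentile, lines are means and 1 SD. The Sham arrays lie above Naïve and TBI on both Ddit4 probes and on the dimmer Mdm2 probe.

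The p53 targets that act on the cell cycle and on p53 itself were not called among Naïve, Sham and TBI rats. Cdkn1a was close to level: 0.11, 0.04 and 0.16 on the Naïve arrays, 0.06 and 0.68 on the Sham arrays and 0.52, 0.12 and 0.24 on the TBI arrays. The groups overlapped, and the difference in TBI vs. Sham was -0.07, with a 95% interval of -0.56 to 0.41 that leaves out a doubling. Its dimmer probe was not called either (0.43, SE 0.86), with an interval of -1.44 to 2.30 that is too wide to leave out a doubling.

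Mdm2 gave a different order on its 2 probes. On the brighter one, levels were -2.18, -3.84 and -2.16 in Naïve, -2.10 and -1.98 in Sham and -1.88, -1.56 and -1.89 in TBI rats, so that TBI lay just above Sham (0.26, SE 0.43, adjusted p = 0.738) and Naïve 2 lay far below the others. On the dimmer one, Sham read -2.74 and -2.71, Naïve -4.63, -3.82 and -4.27, and TBI -3.19, -3.70 and -3.42. There Sham was above both other groups, and the probe was called in Sham vs. Naïve (1.51, SE 0.35, adjusted p = 0.0212) but not in TBI vs. Sham (-0.71, SE 0.35, adjusted p = 0.217). The dimmer probe spans 335 bases of rn4, more than its own 60, and the brighter one lies elsewhere in the gene, so the pair reads different stretches of the transcript.

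Ccng1, cyclin G1, stood out by 1 Sham array. It was at 0.02, -0.51 and 0.19 on the Naïve arrays, -2.56 and -0.33 on the Sham arrays and 0.13, 0.59 and 0.66 on the TBI arrays. Sham 1 was the lowest of the 16 arrays, and Sham 2 lay within the Naïve range. TBI vs. Sham was 1.90 (SE 0.58, adjusted p = 0.057). Without Sham 1 it was 0.79 (adjusted p = 0.446), and without Sham 2 it was 3.01 (adjusted p = 0.0182), so the size of the difference rests on Sham 1. Leaving out TBI 1 also moved it past the threshold (2.07, adjusted p = 0.0466). The Ccng1 probe is shown because it spans 275 bases of the genome for its own 60, so that it is not contiguous there, and because it gave the one fall called in a drug group, described below.
Ccng1, rn4, chr10:25778638-25778912, minus strand: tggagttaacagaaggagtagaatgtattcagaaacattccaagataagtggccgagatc

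Of the genes of the integrated stress response, Ddit3, which encodes the transcription factor CHOP, was nearly level. It read 0.92, 0.79 and 0.47 in Naïve, 0.62 and 1.04 in Sham and 0.41, 1.08 and 0.74 in TBI rats. All 3 groups overlapped, and the difference in TBI vs. Sham was -0.08 (95% interval -0.77 to 0.60, adjusted p = 0.893).

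Atf3, a bZIP factor induced in injured neurons, had the largest log2 fold change of the 10 genes in TBI vs. Sham, and it did not pass the test. Its intensities were 152, 266 and 190 on the TBI arrays, 21.9 and 22.9 on the Sham arrays and 7.32, 198 and 203 on the Naïve arrays. The TBI arrays were all above the Sham ones, yet Naïve 2 and 3 were as high as TBI. Sham 1 and Naïve 1 were not well above background. On the log2 scale TBI vs. Sham was 3.22 (SE 1.53, adjusted p = 0.206) and TBI vs. Naïve 1.53 (SE 1.37, adjusted p = 0.582). The latter rests on Naïve 1, without which it was -0.11 (adjusted p = 0.982). On the slide shared by TBI and Naïve 3 the difference was -0.08.

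Trib3, a pseudokinase that ATF4 and CHOP induce, was dim. No Naïve or Sham array and 1 of 3 TBI arrays (TBI 2) was well above background. The level was -5.99, -5.35 and -6.90 in TBI rats, -7.44 and -7.44 in Sham rats and -6.85, -7.49 and -7.02 in Naïve rats. With 1 of these 8 arrays above background, no fold is given, and no comparison among the 3 groups was called (adjusted p = 0.165 in TBI vs. Sham).

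In all, the arrays of TBI and Sham did not overlap for 6 of the 10 genes, where 41.4% of all probes did not, and those of TBI and Naïve did not overlap for 3 of 10, where 22.9% of all probes did not. Quantile normalization called 2 genes in TBI vs. Sham, Ddit4 and Gadd45a (7.97% of all probes in either direction), and Gadd45a alone in TBI vs. Naïve (1.89, adjusted p = 0.013; 5.55% of all probes).

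**Figure D4:**
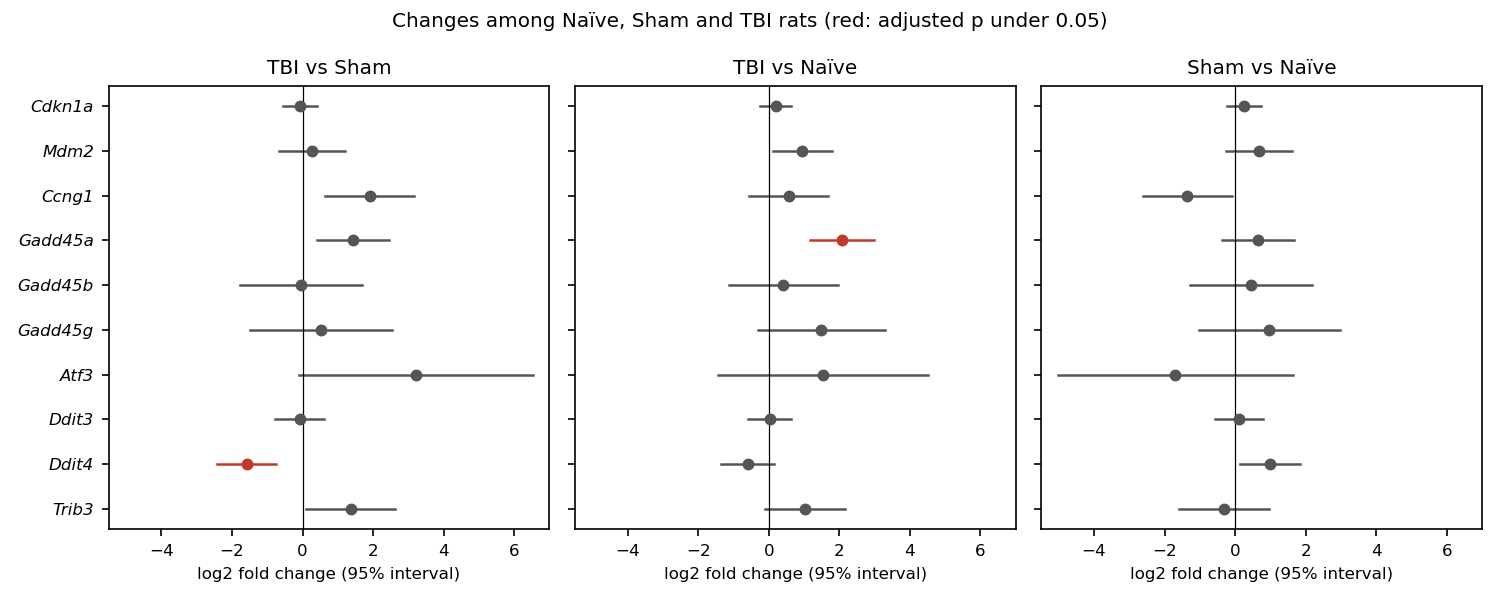
The log2 fold change of each gene (points) with its 95% interval (lines) from limma for each pair among Naïve, Sham and TBI rats; red marks an adjusted p under 0.05. Ddit4 in TBI vs. Sham (-1.58) and Gadd45a in TBI vs. Naïve (2.08) are the red points, and the intervals of Atf3 are the widest.

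The wider pathways were counted in TBI vs. Sham, where 2.93% of all probes tested were called higher and 6.49% lower. With quantiles, 7.97% of all probes were called in either direction. Of 21 other p53 targets tested (27 in the list), 0 were called by limma in either direction and 0 under quantile normalization (4 on either scale had an unadjusted p under 0.05), with a median log2 fold change of 0.02. Among 34 other genes of the integrated stress response, 1 rose and 2 fell, with a median of 0.12, and 10 had an unadjusted p under 0.05 (13 with quantiles). Quantile normalization called 2 higher and 2 lower, adding Shmt2, the mitochondrial serine hydroxymethyltransferase (0.76, adjusted p = 0.0282; 0.74, 0.0576 on the main scale). The riser was Mthfd2, a mitochondrial enzyme of folate metabolism (1.06, SE 0.24, adjusted p = 0.0201), which was also higher in TBI vs. Naïve (1.16, adjusted p = 0.0128). The fallers were Gpt2, an alanine aminotransferase (-1.10, SE 0.24, adjusted p = 0.0168), and Nars, the asparaginyl-tRNA synthetase (-0.93, SE 0.21, adjusted p = 0.0214). Of 18 endoplasmic reticulum chaperone and unfolded protein response genes, 1 fell: Canx, the lectin chaperone calnexin (-2.61, SE 0.33, adjusted p = 0.00432). As with Ddit4, it was the Sham arrays that set Gpt2, Nars and Canx apart: Sham vs. Naïve was 1.21 (adjusted p = 0.0112), 1.57 (0.00304) and 3.01 (0.00185), while TBI vs. Naïve was 0.11, 0.63 and 0.40, none called. The comparisons share the Sham arrays. In TBI vs. Naïve no gene of these 3 lists fell. There 2 of 21 p53 targets, 5 of 34 genes of the integrated stress response and 2 of 18 chaperone genes rose (2, 4 and 2 with quantiles). Of all probes 2.98% were called higher, and 5.55% in either direction with quantiles. In Sham vs. Naïve 0 of the 21, 4 of the 34 and 1 of the 18 rose as well, on either scale, and 1 of the 21 fell. The shares of all probes there were 6.57% higher and 1.52% lower on the main scale.

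The list of DNA damage signalling and repair (24 genes tested) had a median of 0.26 in TBI vs. Sham. Chek1, the checkpoint kinase of replication stress, rose by 1.09 (SE 0.29, adjusted p = 0.0341). Xpa, which verifies damage in nucleotide excision repair, fell by 0.74 (SE 0.21, adjusted p = 0.0467). Chek1 rose against Naïve rats as well, by 1.23 (adjusted p = 0.02), and Xpa did not differ in the test (-0.05, adjusted p = 0.922). Under quantile normalization neither passed the threshold in TBI vs. Sham (Chek1 0.98, adjusted p = 0.0762, and Xpa -0.62, 0.0897). Beside these values, 2 of 5 leukocyte markers (the neutrophil genes S100a8 and S100a9) were called higher and 3 of 7 neuron markers lower in TBI vs. Sham (1 and 0 with quantiles). Of 6 microglia markers, Itgam was higher (1.40) and P2ry12 and Tmem119 lower (-1.41 and -2.17), and Mobp, an oligodendrocyte marker, was lower (-1.95), each called on both scales. The shares of all probes called were 2.93% higher and 6.49% lower. In addition, 4 of 5 leukocyte markers were called higher in TBI vs. Naïve (2 with quantiles). There 0 of 7 neuron and 0 of 6 microglia markers were called (with quantiles 1 neuron marker lower and 1 microglia marker higher), and Mobp was not called. In Sham vs. Naïve 2 of the 7 neuron and 1 of the 6 microglia markers were called higher (0 and 0 with quantiles). The falls of these markers in TBI vs. Sham were thus not called against Naïve rats on the main scale, and the comparisons share arrays. Their part in the results was not tested.

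Each drug group was compared with untreated TBI rats, and here the scale decides most calls. The median of all probes was higher by 0.79 in TBI+PMI, 0.99 in TBI+JM6 and 1.08 in TBI+E33 than in TBI, and by 0.15, 0.21 and 0.25 when arrays were divided by the percentile of all probes, while quantile normalization sets it near 0 (-0.01, 0 and 0). Of the 10 genes, 3 were called in TBI+PMI vs. TBI, all higher (Gadd45a, Ddit4 and Mdm2), where 56.7% of all probes were called higher and 0.0482% lower. In TBI+JM6 vs. TBI 6 were called, all higher (Cdkn1a, Gadd45a, Gadd45b, Gadd45g, Ddit4 and Trib3), where 69.9% of all probes were called higher and 0.175% lower. In TBI+E33 vs. TBI 2 were called higher (Cdkn1a and Ddit4) and 1 lower (Ccng1), where the shares were 70.2% and 0.092%. None of these counts of rises exceeds the share among all probes. The arrays of TBI+E33 and TBI did not overlap for any of the 10 genes, and for 85.1% of all probes.

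Under quantile normalization the count fell to 0 in TBI+PMI vs. TBI in limma (19.2% of all probes in either direction; 0 members also had an unadjusted p under 0.05), to 1 in TBI+JM6 vs. TBI, which was Ddit4 (27.2%), and to 1 in TBI+E33 vs. TBI, which was Ccng1 (20.4%). Trib3 even turned: it was higher by 0.87, 1.34 and 1.34 in TBI+PMI, TBI+JM6 and TBI+E33 vs. TBI on the main scale, with only the second called, and at -0.76, -0.61 and -0.95 with quantiles, none called. The probe was well above background on 1 of 3 TBI arrays, 2 of 3 TBI+PMI arrays and all TBI+JM6 and TBI+E33 arrays, and leaving out single arrays ended the TBI+JM6 call in 4 of 6 fits (adjusted p up to 0.155). The plot of drug groups against TBI shows this shift for all genes.

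**Figure D5:**
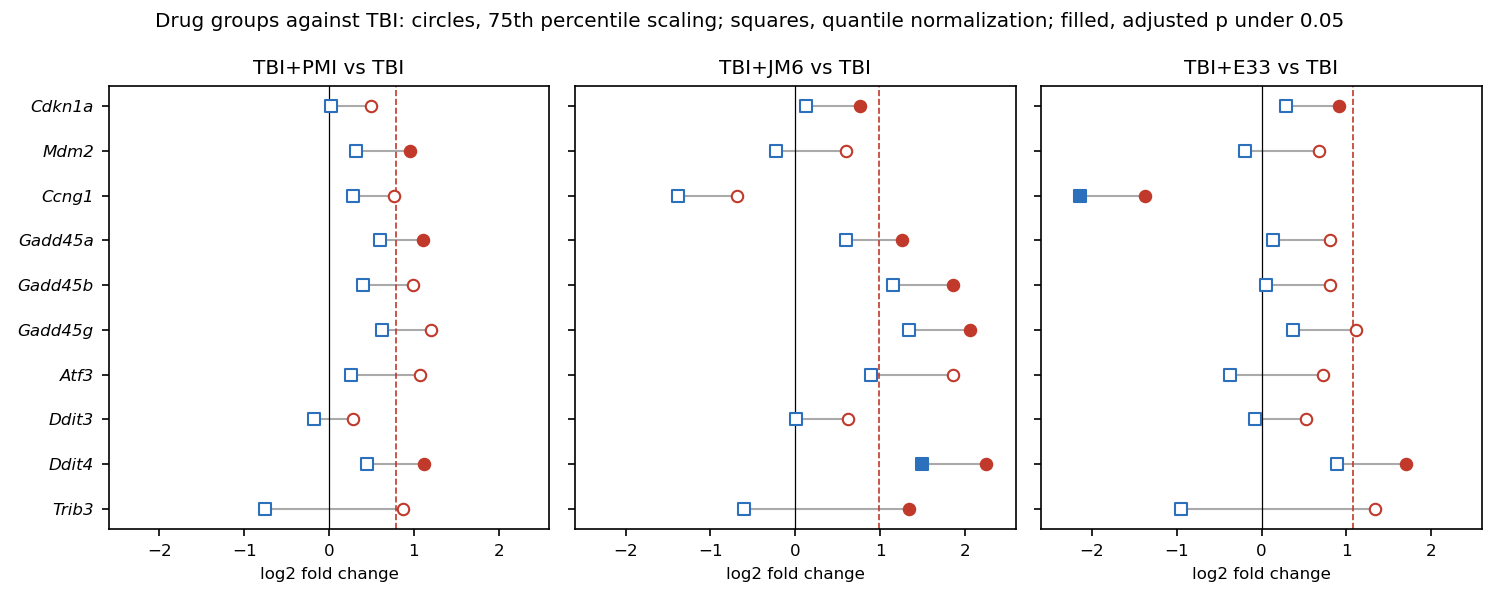
The log2 fold change of each gene in each drug group vs. TBI on 2 scales, circles for the 75th percentile scaling and squares for quantile normalization; filled symbols have an adjusted p under 0.05, and the dashed line is the median of all probes on the first scale. Ddit4 in TBI+JM6 and Ccng1 in TBI+E33 are filled on both scales.

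Ddit4 rose with JM6 on every scale tried. Its brighter probe was at -0.04, 0.32 and 0.90 on the TBI+JM6 arrays, against -1.2, -2.45 and -1.93 in TBI, so the groups were far apart. The difference was 4.76-fold (log2 fold change 2.25, SE 0.35, adjusted p = 0.000141), or 1.26 above the median of all probes. Quantile normalization gave 1.49 (SE 0.34, adjusted p = 0.00847). The call held in all 6 fits that left out 1 array (values from 1.96 to 2.58) and in all 13 other alternatives (1.46 to 2.77). The dimmer probe was called as well (3.28, SE 0.53, adjusted p = 0.000195; quantile normalization 2.14, adjusted p = 0.0182). In TBI+E33 rats Ddit4 was at -0.36 and 0.03, higher than TBI by 1.70 (adjusted p = 0.00218) and, with quantiles, by 0.89 (adjusted p = 0.115). In TBI+PMI rats it was at -0.13, -1.34 and -0.75, overlapping with TBI on TBI+PMI 2, with differences of 1.12 (adjusted p = 0.0155) and 0.45 (adjusted p = 0.37) on the respective scales, and the call was lost in 2 of the 6 fits that left out an array (adjusted p up to 0.0757). The Sham arrays, at -0.22 and -0.34, lie within the range of the drug-treated arrays on this scale, which was set in another session.

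Ccng1 was the one member called lower in a drug group. It was at -1.03 and -0.80 in TBI+E33 rats, against 0.13, 0.59 and 0.66 in TBI (-1.37, SE 0.58, adjusted p = 0.049; quantile normalization -2.14, SE 0.57, adjusted p = 0.0229). Each of the 5 arrays left out in turn ended the call (adjusted p from 0.055 to 0.164), with values between -1.54 and -1.25. In TBI+JM6 vs. TBI, Ccng1 was at -0.69 (adjusted p = 0.239) and with quantiles at -1.38 (adjusted p = 0.0635), neither called. In TBI+PMI vs. TBI it was at 0.77 (adjusted p = 0.214). On the slide that held both TBI+E33 arrays, TBI+JM6 2 and 3 read -1.04 and -0.22, and on the other drug slide TBI+JM6 1 read 0.56 beside TBI+PMI at 1.55, 1.57 and 0.56. Within the shared slide TBI+JM6 was 0.28 above TBI+E33, and the part of the slide in the fall was not tested.

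Gadd45b, Gadd45g and Atf3 stood far higher on 2 drug-treated arrays than on the rest; these arrays were singled out after their values were seen. Gadd45g was at 1.71 on TBI+PMI 1 and 3.58 on TBI+JM6 3, and between -0.55 and 0.46 on the other 6 drug arrays. Gadd45b was at 1.46 and 3.05 on the same arrays and between -0.71 and 0.30 on the rest. Atf3 was at 0.25 and 1.78 there, and between -3.35 and -1.94 elsewhere in the drug groups. These are steps of several fold within a group of 3 rats with the same label. TBI+JM6 3 was the highest of 16 arrays for 7 of the 10 genes and TBI+PMI 1 highest or second for 7, on the main scale, and they held these places for 5 (highest) and 7 genes with quantiles. The share of all probes with these places was not counted, so the places cannot be called particular to the 10 genes. TBI+JM6 3 also had the most probes well above background (24984).

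Gadd45a was at 1.73, 0.65 and 0.10 in TBI+PMI, 0.46, 0.64 and 1.85 in TBI+JM6 and 0.41 and 0.65 in TBI+E33 rats, again highest on that pair of arrays, and all 8 were above the TBI arrays. Without TBI+PMI 1 the difference of TBI+PMI from TBI was 0.65 (adjusted p = 0.179) for Gadd45a, 0.33 (0.717) for Gadd45b and 0.50 (0.642) for Gadd45g. The Gadd45a call was also lost without TBI+PMI 2 (adjusted p = 0.0621), TBI 1 (0.0586) or TBI 3 (0.127), and the other two were not called with all arrays (0.99, adjusted p = 0.244, and 1.2, 0.224). Without TBI+JM6 3 the difference of TBI+JM6 from TBI was 0.83 (adjusted p = 0.0882) for Gadd45a, 0.85 (0.159) for Gadd45b and 0.84 (0.201) for Gadd45g, so all 3 calls were lost; with all arrays they were 1.26 (0.0167), 1.86 (0.0329) and 2.06 (0.0407). Leaving out TBI 3 ended each call too (0.0646, 0.0947 and 0.109), as did TBI 1 for Gadd45b (0.0569) and TBI 1 or TBI 2 for Gadd45g (0.0641 and 0.064). Atf3 was called in neither group with all arrays (1.07, adjusted p = 0.509, and 1.86, 0.235), and was at 0.05 and 0.46 without these arrays.

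Cdkn1a was called in TBI+JM6 and TBI+E33 vs. TBI and Mdm2 in TBI+PMI vs. TBI, and neither under quantile normalization. Cdkn1a was at 0.99, 0.77 and 0.59 in TBI+PMI, 0.85, 0.99 and 1.30 in TBI+JM6 and 1.04 and 1.37 in TBI+E33 rats. The difference from TBI was 0.49 (adjusted p = 0.0502) in TBI+PMI. It was 0.76 (adjusted p = 0.00498) in TBI+JM6 and 0.91 (0.00317) in TBI+E33, or -0.24 and -0.16 once the median of all probes is subtracted. With quantiles they were 0.13 and 0.29, neither called. The dimmer Cdkn1a probe was not called in TBI+PMI (1, adjusted p = 0.275), TBI+JM6 (0.95, 0.276) or TBI+E33 (0.73, 0.445) vs. TBI. With both probes averaged, the Cdkn1a calls in TBI+JM6 (0.85, adjusted p = 0.097) and TBI+E33 (0.82, 0.145) were lost. For the brighter Mdm2 probe the levels were -0.30, -0.75 and -1.40 in TBI+PMI, -1.33, -1.28 and -0.93 in TBI+JM6 and -1.14 and -1.05 in TBI+E33 rats. It was called in TBI+PMI vs. TBI at 0.96 (adjusted p = 0.0493), in 1 of the 6 fits that left out an array, and with quantiles was at 0.32 (0.569). In TBI+JM6 and TBI+E33 it differed from TBI by 0.60 (adjusted p = 0.179) and 0.68 (0.167). The dimmer Mdm2 probe was called on both scales in TBI+PMI vs. TBI (1.85, adjusted p = 0.000388, and 1.03, 0.0162) and TBI+JM6 vs. TBI (1.93, 0.000187, and 0.95, 0.0173), and on the main scale alone in TBI+E33 vs. TBI (1.60, 0.00151, and 0.51, 0.211). Ddit3 was at 1.27, 1.04 and 0.77, then 0.92, 1.13 and 2.05, then 1.2 and 1.34 in the 3 drug groups and was not called on either scale.

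The drug groups shared a scanning session and can be compared with each other, but TBI+PMI and TBI+E33 arrays shared no slide. Only the TBI+JM6 arrays link those slides, so drug and slide can be separated in that pair only through them. Over the 3 pairs of drugs, 0 of 30 values were called by limma, where 0.0131% of all probes were called in TBI+JM6 vs. TBI+PMI, 0.0175% in TBI+JM6 vs. TBI+E33 and 0.11% in TBI+PMI vs. TBI+E33. An unadjusted p under 0.05 was reached by 3 of the 30 values, and the methods' t-test, unadjusted and over 1.2-fold, passed 1. The 3 were Ddit4 in TBI+JM6 vs. TBI+PMI (1.13, 95% interval 0.37 to 1.88, adjusted p = 0.366), Ccng1 in the same pair (-1.46, interval -2.58 to -0.34, adjusted p = 0.447) and Ccng1 in TBI+PMI vs. TBI+E33 (2.14, interval 0.89 to 3.39, adjusted p = 0.145). On the slide that held TBI+JM6 1 with the TBI+PMI arrays, the differences were 0.69 for Ddit4 and -0.67 for Ccng1. With the slide as a fixed block, Ccng1 in TBI+PMI vs. TBI+E33 was 0.95 and was not called. A missed threshold with 2 or 3 rats does not show that the drugs act alike: for Gadd45g the interval of TBI+JM6 vs. TBI+E33 ran from -1.06 to 2.95.

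For the 8 genes well above background on all 16 arrays, the 3 genes with the most similar pattern were sought by the root-mean-square difference of their gene-centred, quantile-normalized log2 values over the 16 arrays. For Gadd45a they were Tmbim1 (0.31), Cebpd (0.31) and Rcan1 (0.34), where the gene's own SD over the arrays was 1.09. Gadd45b, with an SD of 0.90, was nearest to Nptx2 (0.25), Nfil3 (0.27) and Ier2 (0.31). Gadd45g, with an SD of 1.26, was nearest to Trib1 (0.49), Ptx3 (0.49) and Nfil3 (0.50). Nfil3 thus stands near both, and these patterns include the 2 high arrays. For Ddit4 (SD 0.66) the nearest were RGD1563628 (0.34), Arhgef17 (0.35) and Adrb1 (0.35), and for Ccng1 (SD 1.07) they were Ccdc43 (0.69), C1qtnf9 (0.70) and Atp6v1g2 (0.73), which is a looser match. Mdm2 (SD 0.53) was nearest to Cd164 (0.25), Papd4 (0.26) and Golph3 (0.28). Cdkn1a and Ddit3 varied so little, with SDs of 0.20 and 0.23, that their neighbours (Rexo1 at 0.10, Slc25a4 and Rnf144b at 0.12; Emd at 0.12, Ctu2 at 0.13, Cdh22 at 0.14) are mostly genes that are level too.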

How the data were processed

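Whole-hippocampus RNA of 16 rats was hybridised to single-colour Agilent rat arrays. Per the file headers, spot intensity was background subtracted and detrended by the authors with Agilent Feature Extraction 9.5.3.1, and not normalized between arrays. The matrix the authors deposited holds a ratio to each array's 75th percentile, on a linear scale, and was used as an alternative after taking log2. The labels name 2 amplification kits without saying which sample had which.

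Control and flagged spots were left out, the intensities of a probe's spots averaged, divided by the 75th percentile of probes well above background, and put on a log2 scale. The 22827 probes well above background on all arrays of at least 1 group were fitted in a single limma model over 16 arrays (10 residual degrees of freedom), with 9 comparisons, Benjamini-Hochberg adjustment over all probes and calls under 0.05. The brightest probe stood for a gene. Depth here is the number of probes well above background; the number of arrays limits precision. Replicate numbers did not pair rats (correlations of deviations -0.04 to 0.18). Arrays correlated at 0.981 at most, and none was a copy of another. The labels call the samples biological replicates. Alternatives were normexp background correction (offset 50), quantile normalization, other percentiles and filters, the authors' matrix, the methods' t-test, the compared groups alone, the slide or replicate number as a block, probe means, and each array left out; removal of a GC trend was added after seeing the data. The model was tested on simulated data. Named genes were all members, the largest rises and falls called in TBI vs. Sham in each list (p53 targets, integrated stress response, endoplasmic reticulum chaperones, DNA repair), and the 3 nearest patterns. In the DNA repair and oligodendrocyte lists 1 result each, and the counts that include it, are not reported here. The members, lists and tests were chosen with earlier results of these data known. R 4.3.3, limma 3.58.1, the data.table package (1.17.8), Python 3.11.15 and matplotlib 3.10.9 were used.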

Additional observations from a re-analysis of the deposited data

How the results depend on the processing

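Of 1702 values of single genes under alternatives, 1550 stayed on their side of the threshold (88 of them, none called, with the sign changed), 105 lost and 44 gained a call, and 3 calls reversed: Cdkn1a in TBI+JM6 vs. TBI with the percentile of all probes (-0.03), and Trib3 in the same comparison with quantile normalization (-0.61) and with the authors' matrix (-0.58). The counts of genes called (1 for TBI against Sham, 1 for TBI against Naïve, 0 for Sham against Naïve, 3 in TBI+PMI, 6 in TBI+JM6 and 3 in TBI+E33 vs. TBI, 0 between drugs) moved as follows; no cause was tested. Normexp gave 0 in TBI vs. Sham, 0 against Naïve, 0 in TBI+PMI and 3 in TBI+JM6. Quantile normalization and the authors' matrix each gave 2 in TBI vs. Sham, 0 in TBI+PMI, 1 in TBI+JM6 and 1 in TBI+E33. The percentile of all probes gave 3 in TBI vs. Sham, 0 in TBI+PMI, 2 in TBI+JM6 and 1 in TBI+E33. Keeping probes above background on all 16 arrays gave 3 in TBI vs. Sham, as did the slide as a random block, which also gave 1 between drugs (Ccng1 in TBI+PMI vs. TBI+E33). The correlation within slides in that fit was -0.087, so its added calls do not stand for calls kept after a slide effect was removed. The slide as a fixed block gave 0 for TBI against Sham and 0 against Naïve; it could not be fitted for a drug group against TBI. The methods' t-test, unadjusted, gave 3 for TBI against Sham, 2 against Naïve, 2 for Sham against Naïve, 3 in TBI+JM6, 5 in TBI+E33 and 1 between drugs, and adjusted gave 0 for TBI against Sham, 0 against Naïve, 0 in TBI+PMI and 3 in TBI+JM6. The compared groups alone gave 0 for TBI against Sham, 0 against Naïve, 1 in TBI+PMI and 7 in TBI+E33. The mean of all probes gave 2 in Sham vs. Naïve. Leaving out 1 array gave 0 to 2 for TBI against Sham, 0 to 1 against Naïve, 0 to 1 for Sham against Naïve, 0 to 5 in TBI+PMI, 2 to 7 in TBI+JM6, 2 to 3 in TBI+E33 and 0 between drugs; an array left alone in its group was assumed to vary like the others.

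The replicate number as a block, which the pairing check did not bear out, gave 1 in TBI+PMI vs. TBI, 5 in TBI+JM6 and 2 in TBI+E33, and 1, 1 and 0 for TBI against Sham, TBI against Naïve and Sham against Naïve.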
